A study of Mus musculus with 12 samples.

Results

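The leukocyte integrin genes described here are Itgae, Itgam, Itgax, Itgal, Itgad, Itga4, Itgav, Itgb1, Itgb2 and Itgb7. These 10 genes were chosen by name as the α and β chains of the integrins that white blood cells commonly carry, out of 19938 genes with a value on the array. All 10 passed the filter on dim genes and were among the 14953 genes tested. RNA was measured on 12 GeneChip arrays in 6 groups of 2 biological replicates: mature cDC1 and cDC2 sorted from spleens of wild-type (WT), Flt3 knockout (KO) and Flt3L KO mice, all at steady state. cDC1 and cDC2 are the main branches of conventional dendritic cells, Flt3 is a receptor tyrosine kinase that supports their development, and Flt3L is its ligand. All groups shared the digestion of the spleen with collagenase and DNase. The knockout alleles, the age of the mice, the number of mice per array and the antibodies of the sort are not given in the sources used here. It is therefore also unknown whether the proteins of Itgax (CD11c), Itgam (CD11b) or Itgae (CD103) were part of the gate, and a gene used for a gate is no finding between the gated cells. Each p-value reflects only how much these arrays vary, part of which may be technical, and fewer cells of a type in a sample and less RNA per cell cannot be told apart.

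Integrins are adhesion receptors made of 1 α and 1 β chain, and a chain reaches the cell surface only with a partner. They are held in a bent, inactive form until talin and kindlin bind the tail of the β chain, a step driven by the small GTPase Rap1. The β2 chain, Itgb2 (CD18), pairs with Itgal to form LFA-1, with Itgam to form Mac-1 (complement receptor 3), with Itgax to form complement receptor 4 and with Itgad to form CD11d/CD18. Itgae pairs with Itgb7 and binds E-cadherin, and is widely used as a marker of cDC1, while Itgam is widely used as a marker of cDC2. Itga4 pairs with Itgb1 as VLA-4, which binds VCAM-1 and fibronectin, or with Itgb7 as the gut-homing receptor for MAdCAM-1. Itgav pairs with several β chains and is known for releasing TGF-β from its latent complex.

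The targeted genes and the cell type markers were read first. Flt3 intensity was 2333 and 2265 in WT cDC1 and 357 and 370 in Flt3 KO cDC1, and 1817 and 1742 in WT cDC2 and 351 and 371 in Flt3 KO cDC2, with adjusted p-values of 5.26e-10 and 3.17e-09 in limma. Flt3l, the gene targeted in the Flt3L KO, was at 114 and 113 in WT cDC1 and 119 and 129 in cDC1 labelled Flt3L KO, a difference of 0.13 (adjusted p = 0.403). In cDC2 it was at 145 and 149 in WT and 109 and 118 in the arrays labelled Flt3L KO, lower by -0.37 ± 0.08 (adjusted p = 0.0267). The Flt3l values therefore do not bear out the Flt3L KO label in cDC1, and the sources used here do not say where its probes lie against the deleted part. Flt3L KO below means the arrays with that label, and every direction given for them rests on it. The summed intensity of 8 cDC1 markers was 15541 to 17493 in cDC1 arrays and 2159 to 2742 in cDC2 arrays, and that of 8 cDC2 markers was 1913 to 2154 in cDC1 and 7864 to 9242 in cDC2. Replicate 1 of WT cDC1 stood apart, with a lower quartile of intensity of 25.7 against 23.3 to 24.3 on the other 11 arrays, and the standard deviation (SD) over genes of the log2 difference between replicates was 0.21 in WT cDC1 and 0.13 to 0.15 in the other groups.

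In WT cells, cDC1 and cDC2 differed in β2-family chains, in αE and in the β1 chain, while the α4 chain was level. Compared with cDC2, WT cDC1 had higher Itgae, Itgal and Itgb1 and lower Itgam, Itgax and Itgb2. These 6 members had an adjusted p under 0.05 in limma (Benjamini-Hochberg over all 14953 genes), 3 in each direction, against 39.4% of all genes tested, 21% higher and 18.4% lower in cDC1. The arrays of the 2 cell types did not overlap for 8 of the 10 members, against 66.5% of all genes. The median absolute log2 difference was 0.52 over the 10 members and 0.20 over all genes tested. The list holds Itgae and Itgam, widely used markers of these cell types, and was chosen with earlier results of these data known. An excess of the members over all genes, here and in the knockouts, is therefore a description and no finding. All values below are linear intensities as deposited, or differences of log2 intensity with the standard error (SE) of the fit. Levels are compared between groups for 1 gene, and not between genes, because probe sets differ in brightness.

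**Figure D1:**
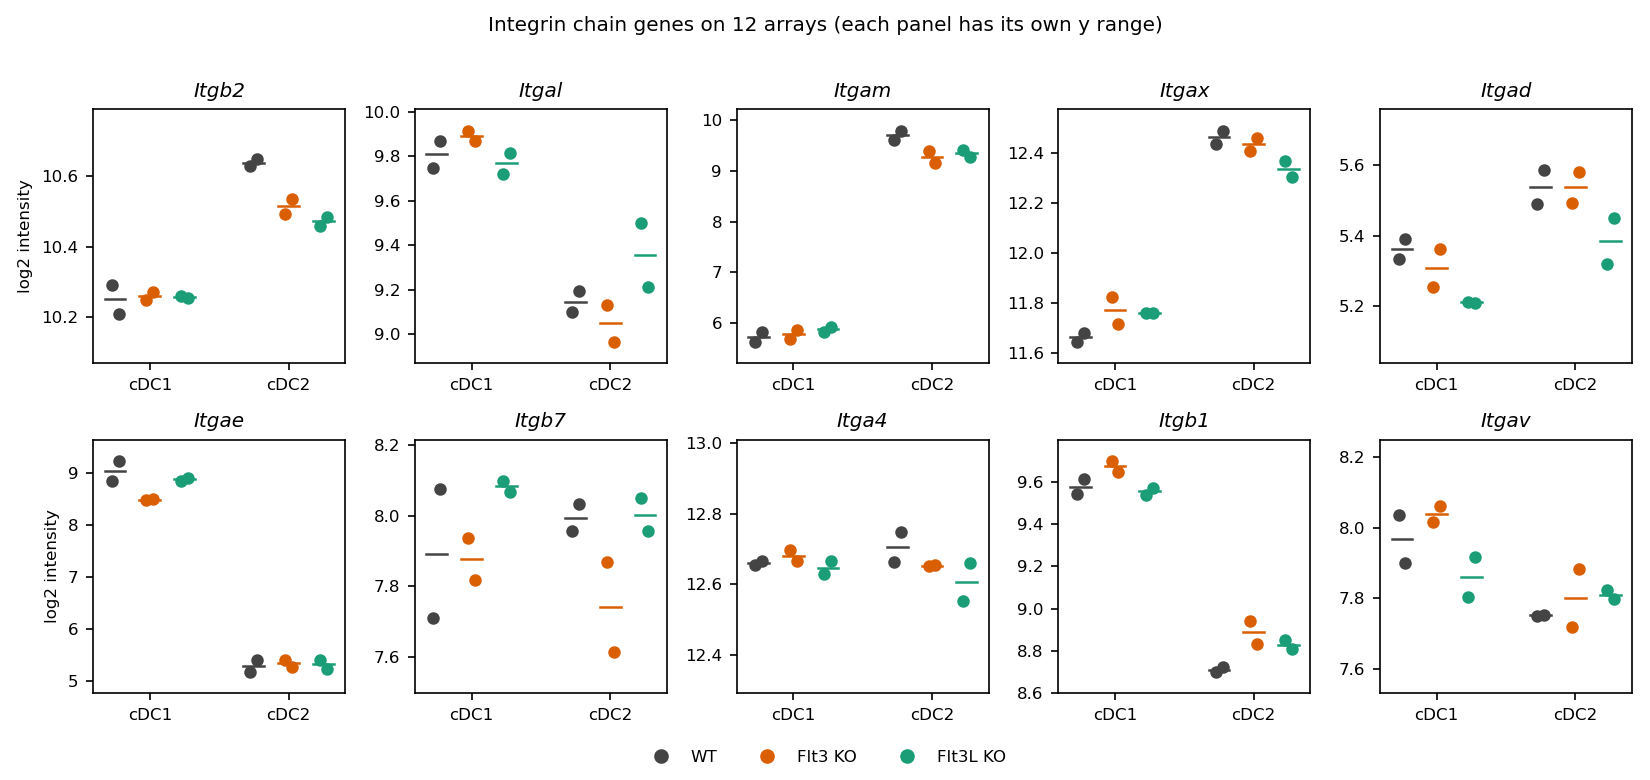
Log2 intensity of the 10 integrin genes, 1 panel per gene with its own y range, with a point per array and a line at the mean of each group of 2, coloured by genotype. Itgae sits high in all cDC1 arrays (354 to 598 on the linear scale) and low in all cDC2 arrays (36.0 to 42.6), Itgam shows the opposite order, and the Itga4 groups are level.

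The β2 family was described first by its shared chain. Itgb2 intensity was 1254 and 1185 in WT cDC1, 1218 and 1236 in Flt3 KO cDC1 and 1227 and 1222 in Flt3L KO cDC1. It was 1583 and 1607 in WT cDC2, 1440 and 1486 in Flt3 KO cDC2 and 1408 and 1433 in Flt3L KO cDC2. Every cDC2 array lay above every cDC1 array, the 3 cDC1 groups overlapped, and the cDC2 groups were ordered WT, Flt3 KO and Flt3L KO without overlap. cDC1 minus cDC2 was -0.39 ± 0.07 (SE; adjusted p = 0.000639) in WT, -0.25 (adjusted p = 0.0122) in Flt3 KO and -0.21 (adjusted p = 0.0302) in Flt3L KO cells. Those last calls were lost in fits that left 1 array in a group, while the differences moved little. In Flt3 KO cells the call was lost without either cDC1 replicate or without cDC2 replicate 2. The difference there stayed at -0.28 to -0.23 when 1 array was left out. In Flt3L KO cells the call was lost without any 1 of the 4 arrays, and the difference stayed at -0.23 to -0.20.

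Itgam, the α chain of Mac-1, differed most between cell types among the members in WT and Flt3 KO cells, while Itgae did in Flt3L KO cells. It was at 782 and 892 in WT cDC2, 678 and 570 in Flt3 KO cDC2 and 686 and 624 in Flt3L KO cDC2. In cDC1 it was at 49.3 and 56.4 in WT, 51.5 and 58.3 in Flt3 KO and 56.8 and 60.8 in Flt3L KO cells. Both WT cDC2 arrays lay above all 4 knockout cDC2 arrays, the knockout cDC2 groups overlapped with each other, and each cDC1 group overlapped with its neighbour in the order of means. The cDC2 over cDC1 ratio was 15.9-fold in WT, 11.3-fold in Flt3 KO and 11.1-fold in Flt3L KO cells, with log2 differences of -3.99 ± 0.11, -3.50 ± 0.11 and -3.48 ± 0.11 (SE; adjusted p at most 9.96e-11). Itgam is also expressed by macrophages, monocytes, neutrophils and NK cells. The summed intensity of 13 macrophage markers was 2008 to 2015 in WT cDC2, 2267 to 2294 in Flt3 KO cDC2 and 2996 to 3437 in Flt3L KO cDC2, and 950 to 1189 in cDC1, with Cd5l under the lower quartile of the array in WT cDC2. Over 8 measured monocyte markers the sum was 14661 to 16457 in cDC2 and 7779 to 8881 in cDC1. Neutrophil markers summed to 305 to 375 and NK cell markers to 209 to 244 over all arrays, with 6 of 8 NK cell markers under the lower quartile of each group. The part of macrophages and monocytes in the Itgam values was not tested.

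Itgax, the α chain CD11c that is used to recognise dendritic cells, was expressed in both types and higher in cDC2. It was at 5544 and 5759 in WT cDC2, 5445 and 5639 in Flt3 KO cDC2 and 5294 and 5059 in Flt3L KO cDC2. In cDC1 it was at 3200 and 3282 in WT, 3623 and 3368 in Flt3 KO and 3468 and 3465 in Flt3L KO cells. No cDC1 array reached a cDC2 array, and both knockouts lay on the inner side of WT in each cell type by their means. cDC1 minus cDC2 was -0.80 ± 0.07 (SE; adjusted p = 1.66e-06) in WT, -0.67 ± 0.07 (adjusted p = 1.02e-05) in Flt3 KO and -0.58 ± 0.07 (adjusted p = 3.76e-05) in Flt3L KO cells. The call was kept in all 3 genotypes under every alternative tried and without any single array.

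Itgal, the α chain of LFA-1 that binds ICAM-1, went the other way. It was at 860 and 935 in WT cDC1, 966 and 935 in Flt3 KO cDC1 and 844 and 900 in Flt3L KO cDC1. The cDC2 values were 549 and 586 in WT, 561 and 500 in Flt3 KO and 724 and 593 in Flt3L KO cells. The cDC1 arrays were all above the cDC2 arrays, and replicate 1 of Flt3L KO cDC2 was the highest of the cDC2 arrays. cDC1 minus cDC2 was 0.66 ± 0.10 (SE; adjusted p = 0.000168) in WT, 0.84 ± 0.10 (adjusted p = 2.2e-05) in Flt3 KO and 0.41 ± 0.10 (adjusted p = 0.00605) in Flt3L KO cells. The Flt3L KO difference was 0.37 (adjusted p = 0.0523) without Flt3L KO cDC1 replicate 2 and 0.27 (adjusted p = 0.0887) without Flt3L KO cDC2 replicate 2.

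Itgad, which encodes CD11d, was the dimmest member, with a mean log2 intensity of 5.39 over the 12 arrays against a limit of 4.78 for the filter. It was at 40.3 and 41.9 in WT cDC1, 38.2 and 41.1 in Flt3 KO cDC1 and 37.1 and 37.0 in Flt3L KO cDC1. In cDC2 it was at 44.9 and 48.1 in WT, 45.1 and 47.9 in Flt3 KO and 40.0 and 43.8 in Flt3L KO cells. cDC2 was above cDC1 in each genotype without overlap, by small amounts. Only the Flt3 KO difference, -0.23 ± 0.08 (SE), passed, with an adjusted p of 0.0414. It lost the call without any 1 of 8 arrays: with a value of -0.18 (adjusted p = 0.249) without Flt3 KO cDC1 replicate 1, -0.28 (0.0567) without its replicate 2, -0.27 (0.0595) without Flt3 KO cDC2 replicate 1 and -0.19 (0.213) without its replicate 2. The adjusted p was 0.0564 without either Flt3L KO cDC1 array and 0.052 without either WT cDC2 array, where the difference itself is the same. Itgad was the only member with a second probe set, which gave -0.21 (adjusted p = 0.285) in WT, -0.41 (0.0488) in Flt3 KO and -0.67 ± 0.15 (0.00289) in Flt3L KO cells, so the probe sets disagreed on which genotypes passed.

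Itgam, Itgax and Itgad follow one another in gene order on chromosome 7 in the RefSeq gene table, and Itgal lies on the same chromosome apart from them. The neighbours Itgam and Itgax were both called higher in cDC2 in every genotype. Itgad was also higher there, by small amounts, and was called only in Flt3 KO cells. RefSeq promoters (build GRCm38.p6, 250 bases before to 50 after the start of transcription) were found for 6 of the 10 members: Itgam, Itgax, Itga4, Itgav, Itgb1 and Itgb7. The ones below belong to the 3 members with a promoter that differed between the cell types in every genotype, and are printed 5′ to 3′ on the strand of the gene. Capitals mark matches on either strand to 3 motifs: GAGGAA, a core read by PU.1, TGTGGT, the RUNX core, and TGANTCA, the AP-1 site. A match on the other strand appears as its reverse complement, for example TTCCTC for GAGGAA.
Itgam, chr7:128062390-128062689, plus strand: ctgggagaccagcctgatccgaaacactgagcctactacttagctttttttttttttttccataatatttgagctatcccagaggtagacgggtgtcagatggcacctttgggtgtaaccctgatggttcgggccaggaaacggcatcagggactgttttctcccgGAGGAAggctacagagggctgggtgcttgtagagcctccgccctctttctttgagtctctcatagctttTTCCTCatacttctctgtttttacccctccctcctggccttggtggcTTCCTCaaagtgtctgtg
Itgax, chr7:128129300-128129599, plus strand: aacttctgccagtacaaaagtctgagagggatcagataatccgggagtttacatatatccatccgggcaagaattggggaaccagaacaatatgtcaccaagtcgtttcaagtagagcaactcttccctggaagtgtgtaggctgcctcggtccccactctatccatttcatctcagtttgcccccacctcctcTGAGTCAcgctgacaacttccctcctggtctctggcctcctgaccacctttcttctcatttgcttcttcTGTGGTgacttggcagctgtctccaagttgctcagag
Itgb1, chr8:128685404-128685703, plus strand: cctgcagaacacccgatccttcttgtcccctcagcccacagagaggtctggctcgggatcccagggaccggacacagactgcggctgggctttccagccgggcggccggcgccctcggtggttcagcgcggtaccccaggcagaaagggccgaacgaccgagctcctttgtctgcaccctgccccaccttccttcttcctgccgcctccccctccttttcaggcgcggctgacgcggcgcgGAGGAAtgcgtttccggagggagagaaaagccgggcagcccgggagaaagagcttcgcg
The Itgam window held 3 matches to GAGGAA and none to the other motifs, and no 2 matches overlapped. The Itgax window held 1 match to TGTGGT, 1 to TGANTCA and none to GAGGAA, and the Itgb1 window held 1 match to GAGGAA. Among 32851 promoters of 300 bases, 28.3% held GAGGAA, 16.8% TGTGGT and 7.81% TGANTCA. Of the members not printed, Itgav held 2 matches to GAGGAA, Itgb7 held 1, and Itga4 held 1 to TGTGGT. A match is a description of letters in the window and not a bound site.

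Itgae, the αE chain CD103, was the member that marked cDC1. It was at 459 and 598 in WT cDC1, 354 and 358 in Flt3 KO cDC1 and 457 and 478 in Flt3L KO cDC1. Its cDC2 values were 36.0 and 42.4 in WT, 42.6 and 38.4 in Flt3 KO and 42.2 and 37.7 in Flt3L KO cells. By their means the cDC1 groups were ordered WT, Flt3L KO and Flt3 KO. WT and Flt3L KO cDC1 overlapped, both Flt3 KO arrays lay below them, and the 3 cDC2 groups overlapped. cDC1 was 13.4-fold above cDC2 in WT, 8.8-fold in Flt3 KO and 11.7-fold in Flt3L KO cells, with log2 differences of 3.75 ± 0.12, 3.14 ± 0.12 and 3.55 ± 0.12 (SE; adjusted p at most 5.2e-10).

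The partner chain of αE showed no such order. Itgb7 was at 209 and 270 in WT cDC1, 245 and 226 in Flt3 KO cDC1 and 274 and 268 in Flt3L KO cDC1. Its level in cDC2 was 248 and 262 in WT, 234 and 196 in Flt3 KO and 265 and 248 in Flt3L KO cells. The difference between its WT cDC1 replicates was as large as that between any pair of groups' means. cDC1 minus cDC2 was -0.10 ± 0.12 (adjusted p = 0.522; 95% interval -0.36 to 0.15) in WT, 0.14 (adjusted p = 0.429) in Flt3 KO and 0.08 (adjusted p = 0.664) in Flt3L KO cells.

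Among the chains of VLA-4, the α chain was level and the β chain was not. Itga4 was at 6452 and 6498 in WT cDC1, 6639 and 6495 in Flt3 KO cDC1 and 6330 and 6500 in Flt3L KO cDC1. The cDC2 arrays gave 6485 and 6880 in WT, 6429 and 6449 in Flt3 KO and 6004 and 6476 in Flt3L KO cells. The highest and the lowest array were both cDC2. Its cDC1 minus cDC2 differences were -0.04 (95% interval -0.20 to 0.11) in WT, 0.03 (-0.13 to 0.19) in Flt3 KO and 0.04 (-0.12 to 0.20) in Flt3L KO cells, and none passed, with adjusted p-values of 0.663, 0.82 and 0.734.

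Itgb1, the β1 chain shared by VLA-4 and the collagen and laminin receptors, was higher in cDC1. It was at 745 and 782 in WT cDC1, 831 and 802 in Flt3 KO cDC1 and 744 and 761 in Flt3L KO cDC1. In cDC2 it was at 416 and 422 in WT, 492 and 457 in Flt3 KO and 462 and 448 in Flt3L KO cells. Within each cell type the Flt3 KO group had the highest mean, and all cDC1 arrays lay above all cDC2 arrays. cDC1 minus cDC2 was 0.87 ± 0.07 (SE; adjusted p = 8.42e-07) in WT, 0.78 ± 0.07 (2.22e-06) in Flt3 KO and 0.72 ± 0.07 (4.93e-06) in Flt3L KO cells. These are 1.82-fold, 1.72-fold and 1.65-fold.

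Itgav, the αv chain, differed little. It was at 262 and 239 in WT cDC1, 259 and 267 in Flt3 KO cDC1 and 224 and 242 in Flt3L KO cDC1, and in cDC2 at 215 and 216, 211 and 236, and 226 and 223 in the same order of genotypes. Every group overlapped with its neighbour in the order of means. cDC1 minus cDC2 was 0.22 ± 0.08 (adjusted p = 0.0561) in WT, 0.24 ± 0.08 (adjusted p = 0.0418) in Flt3 KO and 0.05 (adjusted p = 0.716) in Flt3L KO cells. Calls on this gene changed with single arrays. The Flt3 KO difference had an adjusted p of 0.101 and 0.178 without either Flt3 KO cDC1 replicate and 0.277 without Flt3 KO cDC2 replicate 1. Its adjusted p was 0.0535 without either Flt3L KO cDC2 array and 0.0588 without either WT cDC2 array. The WT difference passed at 0.03 without WT cDC1 replicate 2 and at 0.0499 without either Flt3 KO cDC2 array.

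**Figure D2:**
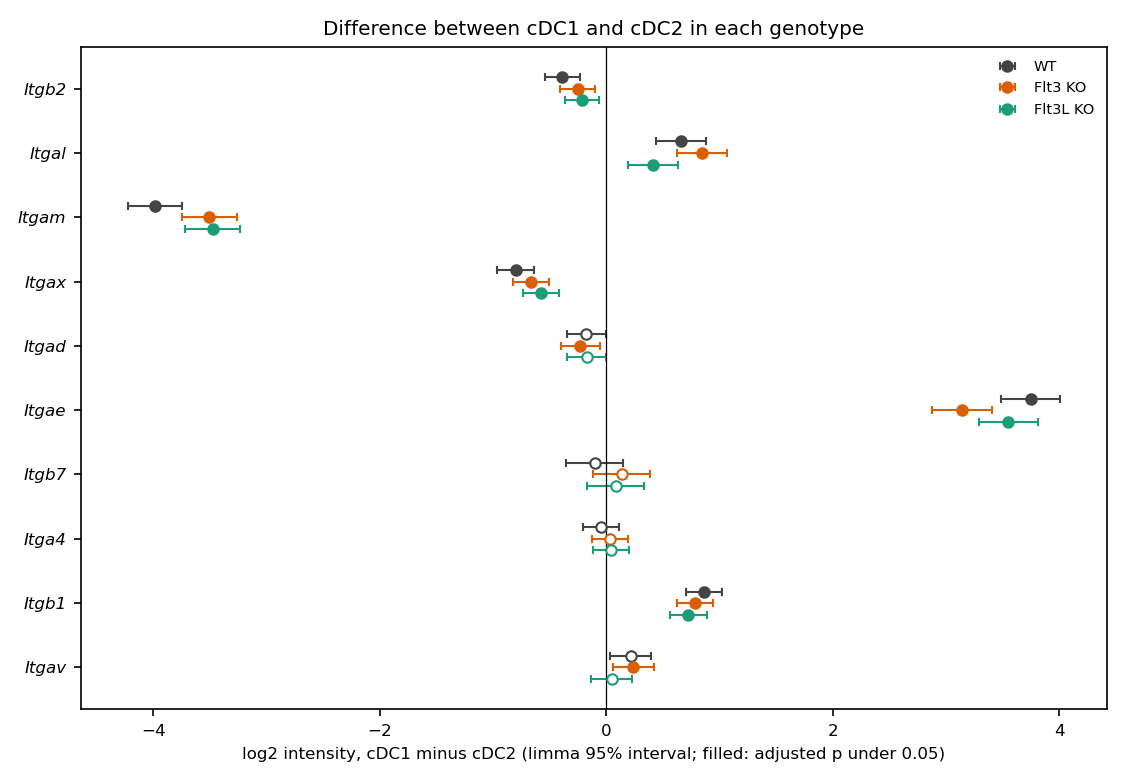
Difference of log2 intensity between cDC1 and cDC2 for the 10 integrin genes in WT, Flt3 KO and Flt3L KO cells, with 95% intervals from the fit over 12 arrays. Itgae lies at 3.14 to 3.75 and Itgam at -3.99 to -3.48, Itgal and Itgb1 lie above 0 and Itgax and Itgb2 below it in all 3 genotypes.

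Across genotypes, 8 members passed between cDC1 and cDC2 in Flt3 KO cells (4 in each direction, against 35.5% of all genes, 19.1% higher and 16.4% lower in cDC1) and 6 in Flt3L KO cells (3 in each direction, against 34.8%, 18.9% higher and 15.9% lower). The 6 called in WT, Itgae, Itgal, Itgb1, Itgam, Itgax and Itgb2, were called in the same direction in all 3 genotypes, and the other 2 in Flt3 KO cells were Itgad and Itgav. The arrays of the cell types did not overlap for 9 members in Flt3 KO (66.6% of all genes) and 8 in Flt3L KO cells (66.7%). The Flt3 KO count fell to 5 without either Flt3 KO cDC1 replicate. The difference between cell types was smaller in both knockouts than in WT for Itgae, Itgam, Itgax, Itgb1 and Itgb2. Of the other called members, Itgal, Itgad and Itgav had a larger difference in Flt3 KO than in WT cells (Itgal 0.84 against 0.66). Over all genes tested, the median absolute log2 difference between cell types was 0.20 in WT, 0.16 in Flt3 KO and 0.16 in Flt3L KO cells. The WT cDC1 replicates differed most from each other (SD 0.21), and the part of that spread in these medians was not tested. All of these comparisons share the fit, and the interaction that tests the change of the difference passed for no member.

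Neither knockout was called against WT for any of the 10 members in either cell type. In limma, 0 of 10 passed in Flt3 KO cDC1, where 0.0803% of all genes were called, and 1 had an unadjusted p under 0.05, against 12.5% of all genes. In Flt3 KO cDC2, 0 of 10 passed against 0.107% of all genes, with 3 under the unadjusted threshold against 7.28%. In Flt3L KO cDC1, 0 of 10 passed against 1.19% of all genes, with 0 under the unadjusted threshold against 17.1%. In Flt3L KO cDC2, 0 of 10 passed against 1.95%, with 2 under the unadjusted threshold against 14.6%. The background is so low that a count of 0 says little about the integrins in particular. The median absolute log2 difference was 0.06 over the members and 0.09 over all genes in Flt3 KO cDC1, 0.08 and 0.07 in Flt3 KO cDC2, 0.10 and 0.10 in Flt3L KO cDC1, and 0.12 and 0.09 in Flt3L KO cDC2. The knockouts share the WT arrays, so their values are given side by side and not as 2 separate observations.

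The members with the smallest unadjusted p were those that mark each cell type. Itgae in Flt3 KO cDC1 was lower than in WT by a log2 value of -0.56 ± 0.12 (SE; 95% interval -0.82 to -0.29; unadjusted p = 0.000556 and adjusted p = 0.156 in limma). The adjusted p was 0.0645 to 0.648 over the other alternatives. The difference was -0.75 (adjusted p = 0.0568) without the low WT cDC1 replicate 1 and -0.37 (0.072) without WT cDC1 replicate 2, so its size depended on which WT array was kept. In Flt3L KO cDC1 the Itgae difference was -0.16 (95% interval -0.43 to 0.10; adjusted p = 0.528). In Flt3 KO cDC2 it was 0.05, and in Flt3L KO cDC2 0.03.

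Itgam in cDC2 was lower than in WT by -0.43 ± 0.11 (95% interval -0.67 to -0.19; adjusted p = 0.274) in Flt3 KO and -0.35 ± 0.11 (-0.59 to -0.11; adjusted p = 0.145) in Flt3L KO cells. In cDC1 the values were 0.06 (-0.19 to 0.30) and 0.16 (-0.08 to 0.40). None of these passed. The macrophage marker sums given above were higher in the knockout cDC2, and the part of macrophages in these Itgam values was not tested. Itgb1 (0.18; adjusted p = 0.611) and Itgb7 (-0.25; adjusted p = 0.686) in Flt3 KO cDC2 and Itgb2 in Flt3L KO cDC2 (-0.17; adjusted p = 0.295) had an unadjusted p under 0.05 and did not pass. Over all members, each read from its brightest probe set, and the 4 comparisons with WT, the 95% intervals lay between -0.82 and 0.44. A change of 1 log2 unit, a doubling or halving, was outside each of them, but the intervals were not adjusted for their number. The other Itgad probe set reached beyond this range in Flt3L KO cDC2, at 0.38 (0.06 to 0.70).

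**Figure D3:**
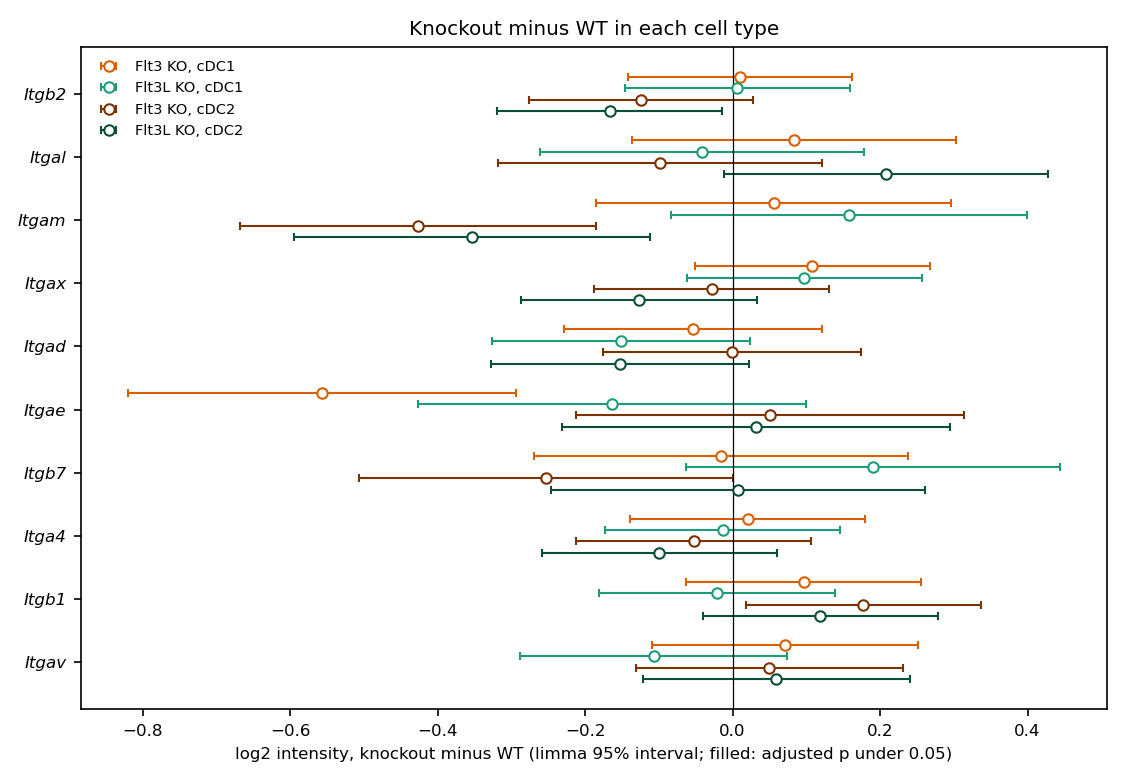
Difference of log2 intensity between each knockout and WT for the 10 integrin genes in cDC1 and cDC2, with 95% intervals from the fit over 12 arrays. No member passed an adjusted p of 0.05, and the values farthest from 0 are Itgae in Flt3 KO cDC1 at -0.56 and Itgam in Flt3 KO cDC2 at -0.43.

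The knockouts were also compared with each other. No member passed in cDC1, against 0.883% of all genes, or in cDC2, against 0.93%, with 1 and 2 members under an unadjusted p of 0.05 in limma, against 15.8% and 12.7% of all genes. Itgae was higher in Flt3L KO than in Flt3 KO cDC1 by 0.39 ± 0.12 (95% interval 0.13 to 0.66; adjusted p = 0.144). Itgal was higher in Flt3L KO than in Flt3 KO cDC2 by 0.31 ± 0.10 (0.09 to 0.53; adjusted p = 0.215), and Itgb7 by 0.26 ± 0.12 (adjusted p = 0.372). The effect of a knockout in cDC2 minus its effect in cDC1 passed for 0 members for Flt3 KO (0% of all genes, with 2 members unadjusted against 8.97% of all genes) and for 0 members for Flt3L KO (0.495%, with 1 member unadjusted against 14.8%). For Itgae the difference of the Flt3 KO effects was 0.61 ± 0.17 (adjusted p = 0.458). For Itgam it was -0.48 ± 0.16 (adjusted p = 0.472) for Flt3 KO and -0.51 ± 0.16 (adjusted p = 0.177) for Flt3L KO.

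Further integrin chains outside the 10 members differed between the cell types as well. Of 15 tested, 5 were higher and 3 lower in WT cDC1 than in WT cDC2, where 21% of all genes were higher and 18.4% lower. Itga1 and Itga8, which pair with Itgb1 to bind collagen and RGD-bearing ligands, were higher in cDC1 by 2.75 ± 0.15 and 2.64 ± 0.13. Itga1 was at 150 and 182 in WT cDC1 and 29.1 and 20.6 in WT cDC2. Itga3, a laminin-binding partner of Itgb1, was higher by 1.86 ± 0.10. Itgb3, a partner of Itgav, was lower in cDC1 by -1.92 ± 0.12, at 58.4 and 52.0 against 199 and 220, and Itga9 was lower by -1.07 ± 0.12. These 5 differences had adjusted p-values of at most 1.06e-05 and passed in the same direction in both knockouts. Itgb3 is also a platelet gene, and the platelet genes Pf4 and Ppbp were at 13 to 17 in every array, under the lower quartile. These were the only 2 of 5 platelet genes with a value that lay under it. The platelet gene Itga2b was higher in cDC1 than in cDC2 by 0.29 in WT (adjusted p = 0.0552) and by 0.35 in Flt3L KO cells (adjusted p = 0.0264). The part of platelets in the Itgb3 values was not tested. In Flt3 KO cells 4 chains were higher and 2 lower (19.1% and 16.4% of all genes), in Flt3L KO cells 5 and 3 (18.9% and 15.9%), and no chain passed in a comparison of a knockout with WT.

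Among genes of integrin activation and their adaptors, 5 of 36 tested were higher and 11 lower in WT cDC1. Of all genes 39.4% were called, 21% higher and 18.4% lower. Fyb, the adaptor ADAP that links to Rap1 signalling, was lower by -1.95 ± 0.10, at 552 and 672 against 2319 and 2372 in WT cDC2. Rap1gap2, a Rap1 inhibitor, was lower by -1.07 ± 0.12, Rasgrp2, an exchange factor that activates Rap1, by -1.01 ± 0.11, and Apbb1ip, the Rap1 effector RIAM, by -0.82 ± 0.10. Activators and inhibitors of Rap1 were thus among the lower genes, while Actn1, which anchors the β tail to actin, was higher by 0.90 ± 0.12 (adjusted p of these 5 at most 3.65e-05). Tln1, which encodes talin, differed by 0.02 (adjusted p = 0.866) and Fermt3, kindlin-3, by 0.21 (adjusted p = 0.0476). The counts were 7 higher and 11 lower in Flt3 KO cells (19.1% and 16.4% of all genes), and 7 and 9 in Flt3L KO cells (18.9% and 15.9%). Between genotypes, Actn1 fell by 0.54 in Flt3L KO against WT cDC1 (adjusted p = 0.0491) and Rasgrp2 was 0.55 higher in Flt3L KO than in Flt3 KO cDC1 (adjusted p = 0.0369). The Actn1 call was lost without any 1 of the 4 arrays compared, at adjusted p-values of 0.0586 to 0.278, and the Rasgrp2 call likewise, at 0.0557 to 0.298. Leaving out an array of another group moved them to 0.0742 at most for Actn1 and 0.0646 at most for Rasgrp2.

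Among integrin ligands and counter-receptors, 5 of 18 tested were higher and 2 lower in WT cDC1. Of all genes 39.4% were called, 21% higher and 18.4% lower. Thbs1, thrombospondin-1, a secreted ligand of αv integrins, was lower by -3.57 ± 0.14 (adjusted p = 4.97e-10), at 130 and 190 against 1792 and 1938 in WT cDC2. F11r, the junctional molecule JAM-A that binds LFA-1, was lower by -0.78 ± 0.12 (adjusted p = 0.000192). Vcam1, the ligand of VLA-4, was higher by 0.88 ± 0.08 (adjusted p = 1.11e-06) and Icam4 by 0.41 ± 0.11 (adjusted p = 0.00869). Vwf, von Willebrand factor, was higher by 0.30 (adjusted p = 0.0224), but by 0.18 (adjusted p = 0.197) without WT cDC1 replicate 1 and 0.23 (adjusted p = 0.172) without WT cDC2 replicate 2. In Flt3 KO cells 3 were higher and 3 lower (19.1% and 16.4% of all genes), and in Flt3L KO cells 2 and 4 (18.9% and 15.9%).

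Vcam1 was the gene of these 4 lists called in both knockouts against WT. In cDC2 it was at 84.5 and 90.9 in WT, 130 and 121 in Flt3 KO and 194 and 205 in Flt3L KO cells, with no overlap between these groups. In cDC1 it was at 165 and 157 in WT, 181 and 177 in Flt3 KO and 196 and 202 in Flt3L KO cells. Against WT cDC2 it was higher by 1.19 ± 0.08 in Flt3L KO (adjusted p = 1.7e-05) and by 0.51 ± 0.08 in Flt3 KO cells (adjusted p = 0.0321), and Flt3L KO cDC2 exceeded Flt3 KO cDC2 by 0.67 (adjusted p = 0.00245). The call in Flt3 KO cDC2 was lost without any 1 of the 4 arrays compared, at adjusted p-values of 0.131 to 0.248, and was 0.0612 or 0.0549 without a Flt3 KO cDC1 or a Flt3L KO cDC1 array. The Flt3L KO effect was larger in cDC2 than in cDC1 by 0.88 ± 0.11 (adjusted p = 0.00626). Vcam1 also belongs to the macrophage markers, of which 7 of 12 tested were higher and 1, Adgre1, lower in Flt3L KO than in WT cDC2: C1qa was at 135 and 157 in WT and 790 and 569 in Flt3L KO cDC2, while Cd5l was at 22.0 and 17.3 against 23.0 and 29.1 and Marco at 54.8 and 58.2 against 52.6 and 53.6. The part of macrophages in the Vcam1 values was not tested.

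Genes of TGF-β activation and signalling were counted because αv integrins release TGF-β and the cytokine is known to induce Itgae. Of 16 tested, 3 were higher and 6 lower in WT cDC1, against 21% and 18.4% of all genes. Nrros, a protein that holds latent TGF-β on myeloid cells, was lower by -1.54 ± 0.09, while Lrrc32 (GARP), which does so on regulatory T cells and platelets, was higher by 0.78 ± 0.13. Smad7, the inhibitory SMAD, was lower by -1.37 ± 0.08, the transcription factor Runx3 by -0.78 ± 0.08 and Smad4, the common SMAD, by -0.70 ± 0.07, and these 5 had adjusted p-values of at most 0.000248. In Flt3 KO cells 2 were higher and 6 lower (19.1% and 16.4% of all genes), and in Flt3L KO cells 1 and 5 (18.9% and 15.9%).

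Some of these genes also differed between genotypes. Smad7 was at 282 and 274 in WT cDC1, 287 and 270 in Flt3 KO cDC1 and 361 and 374 in Flt3L KO cDC1, and in cDC2 at 728 and 709, 765 and 665, and 591 and 558. It was higher in Flt3L KO cDC1 by 0.40 ± 0.08 against WT (adjusted p = 0.0466) and by 0.40 against Flt3 KO (adjusted p = 0.0483). Without any 1 of the arrays compared, these adjusted p-values were 0.0554 to 0.187 and 0.172 to 0.25, and they were up to 0.0747 and 0.0802 without an array of another group. The Flt3L KO effect on Smad7 in cDC2 minus that in cDC1 was -0.72 ± 0.12 (adjusted p = 0.0208), with 0.0539 to 0.0946 without an array of Flt3L KO or of WT cDC2. Lrrc32 was lower in Flt3L KO cDC2 by -0.74 ± 0.13 against WT (adjusted p = 0.0112) and by -0.82 against Flt3 KO (adjusted p = 0.0111). Smad3, a SMAD that carries the TGF-β signal, was higher there by 0.57 ± 0.12 against WT (adjusted p = 0.0303). For Lrrc32 against WT, the adjusted p was 0.115 without Flt3L KO cDC2 replicate 1 and 0.101 and 0.0706 without either WT array, and against Flt3 KO it was 0.138 without the same Flt3L KO replicate and 0.126 without Flt3 KO cDC2 replicate 2. For Smad3 it was 0.117 to 0.205 without any 1 of the 4 arrays.

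**Figure D4:**
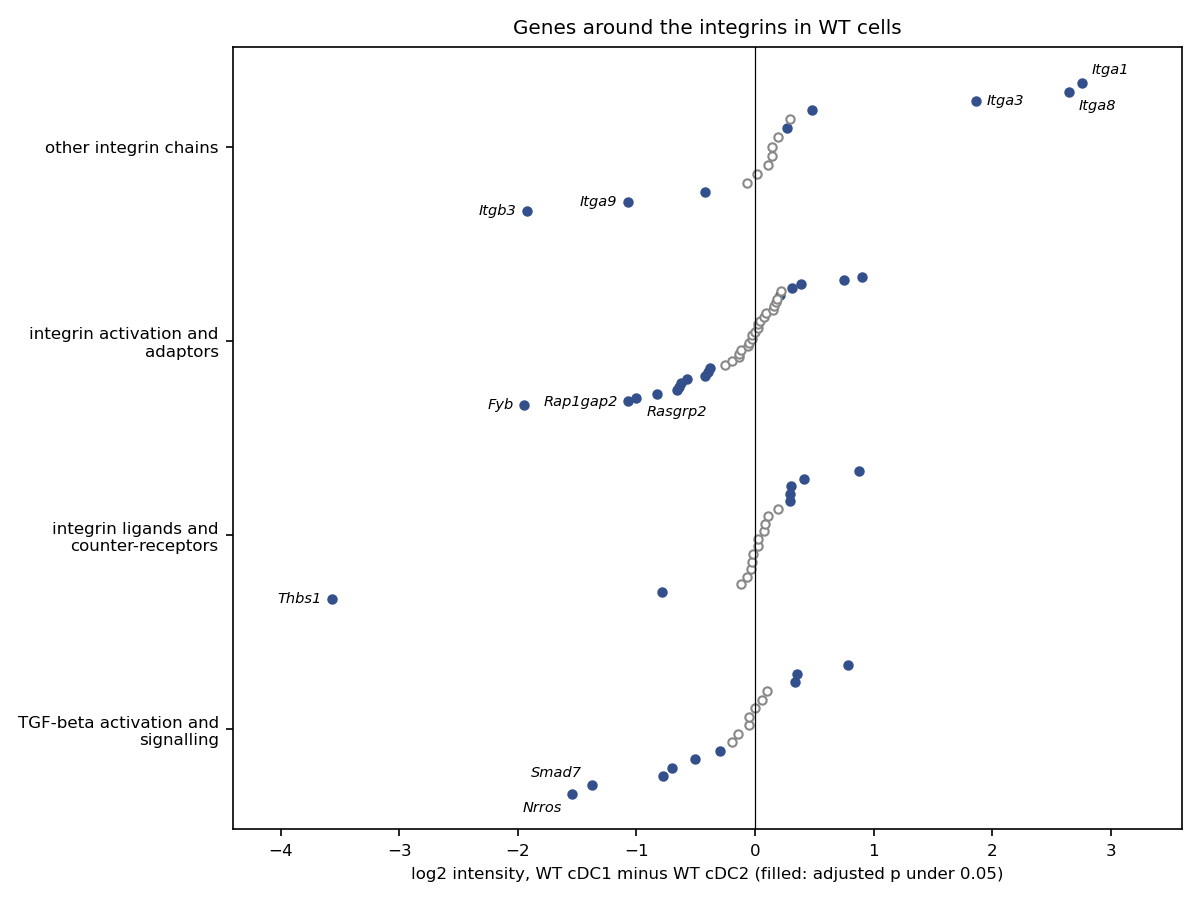
Difference of log2 intensity between WT cDC1 and WT cDC2 for the tested genes of 4 lists: other integrin chains, activation and adaptors, ligands and counter-receptors, and TGF-β genes. Each point is a gene, filled where the adjusted p was under 0.05, and the farthest are Thbs1 at -3.57 and Itga1 at 2.75.

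For each member called between WT cDC1 and cDC2, the genes with the most similar pattern were listed by Pearson's r of log2 intensity over the 12 arrays, as a description. The arrays fall into the 2 cell types, so r mostly reflects a shared difference between them. Itgae was most like Atp6v0a2 (r = 0.998), Ppm1m and Rnase6 (both 0.995). Itgam was most like Sh2d1b1 and Cd300lf (both 0.998) and Tgm2 (0.997). The closest to Itgax were Elmo1 and Ptgs2 (both 0.996) and Lyst (0.995), and to Itgb1 Akr1b10 (0.995), Selplg and Suclg1 (both 0.994). Itgal and Itgb2 had looser neighbours, with Treml4 (0.984), Htr7 (0.982) and Ly6e (0.98) for Itgal, and Mef2c (0.991), Macf1 and Cstad (both 0.979) for Itgb2.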

How the data were processed

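RNA of 12 samples was labelled for GeneChip arrays, per the labels' protocols. Each deposited value is the linear intensity of 1 probe set on 1 array. The summarisation and normalization by the authors were not given in the sources used here and their effect on the values is unknown, and dim values may hold background, which understates folds.

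Of 30177 probe sets, 21789 had 1 gene symbol in the platform annotation and were kept, 1621 had several and 6767 had no entry. Symbols were checked by Entrez ID against RefSeq for 21698 of them and 0 changed. A gene was read from its probe set of highest mean. Genes in the dimmest share of 0.25, with a mean log2 intensity under 4.78, were not tested, except Flt3 and Flt3l.

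Log2 intensities were fitted in limma 3.58.1 under R 4.3.3 with 1 mean per group over all 12 arrays and 6 residual degrees of freedom. The 11 comparisons were cDC1 against cDC2 in each genotype, each knockout against WT and the knockouts against each other in each cell type, and the effect of each knockout in cDC2 minus that in cDC1. P-values were adjusted by Benjamini-Hochberg over 14953 genes. A gene was called at an adjusted p below 0.05. The method was tested on simulated data. Precision is limited by 2 arrays a group.

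The members and lists were chosen with earlier results of these data known. All members are named; of each other list, the 5 called genes with the largest WT difference and up to 4 called genes per comparison with a knockout; and 3 genes most like each called member. C1qa, Cd5l, Marco, Pf4, Ppbp, Itga2b and Adgre1 are named as cell type markers, and Tln1 and Fermt3 were named for their role, after values were seen. Alternatives are listed with their effects in the closing section. Deviations of same-numbered replicates were weakly correlated (r of -0.20 to 0.17 over 15 pairs of groups). The r was positive within each genotype (0.09 to 0.16) and between the knockouts (0.04 to 0.17). It was negative between WT and knockout groups (-0.20 to -0.05). The labels do not say that equal numbers share animals or batches, so no replicate block was used in the main fit. Ptk2, Spp1 and C3, of the lists, are not analysed here. Promoter sequences are those of RefSeq, and the 4 members without one there are named only.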

Additional observations from a re-analysis of the deposited data

Results flagged for a closer look

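The effect of the Flt3L KO differed between cDC2 and cDC1 for 2 genes around the integrins, by the test of the difference in limma. For Vcam1 it was larger in cDC2 by 0.88 ± 0.11 on the log2 scale (adjusted p = 0.00626), and the Flt3L KO arrays lay above the WT arrays in both cell types. For Smad7 it was -0.72 ± 0.12 (adjusted p = 0.0208), with 361 and 374 in Flt3L KO against 282 and 274 in WT cDC1. In cDC2 it was at 591 and 558 against 728 and 709, where the difference of -0.32 was not called (adjusted p = 0.0752). The Smad7 call was lost in 6 of the 12 fits that each left out 1 array, with adjusted p-values up to 0.0946. Both results rest on the Flt3L KO label, which the Flt3l values do not bear out in cDC1. No member was among the genes with such a difference.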

How the results depend on the processing

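Each result was recomputed with quantile-normalized arrays, without the filter on dim genes or with a stricter one (0.5 of genes), with a variance prior that was trended and robust, with probe sets averaged per gene, on just the arrays of a comparison, with replicate number blocked (over all arrays or within genotype), and with 1 array omitted at a time, a lone array being assumed to vary like the other groups. Crossed replicate numbers (those of WT exchanged) and the other Itgad probe set were added after seeing the data. Over all members, comparisons and alternatives, 2287 values stayed on their side of the threshold, 33 lost a call (24 of them by leaving out an array), 9 gained one and 0 called values changed sign. The sign changed for 56 values that passed in neither fit (39 by leaving out an array), such as Itgad in Flt3L KO cDC2 against WT, at -0.15 and at 0.38 by its other probe set. The members called between cDC1 and cDC2 numbered 6 to 7 in WT, 5 to 8 in Flt3 KO and 4 to 6 in Flt3L KO cells when 1 array was left out, with 5 without Flt3 KO cDC1 replicate 1 or 2, and 0 in the 8 comparisons that involve a knockout effect.

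With the replicate number as a block the counts were 6, 7 and 6, with Itgav lost in Flt3 KO cells (adjusted p = 0.0536), and with crossed numbers 7, 8 and 6. Both gave 0 in the other comparisons, and no other member call changed under the plain block. Itgav passed in WT with a share of 0.5 left out (0.0353), the trended prior (0.0474) and crossed numbers (0.0376), and Itgad with quantile normalization (0.0427). In Flt3 KO cells Itgad and Itgav lost their calls under quantile normalization (0.0876 and 0.126), no filter (0.0599 and 0.0598) and only the arrays compared (0.0592 and 0.0614), and Itgad also under the trended prior (0.0764). In Flt3L KO cells Itgb2 lost its call with only the arrays compared (0.0589), and Itgad passed with the mean of its probe sets (0.0021).

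Counts over all genes against WT depended on the setting. They were 12 in Flt3 KO cDC1 (3 to 35 over the settings, 3 to 1132 with 1 array left out), 16 in Flt3 KO cDC2 (9 to 36, and 2 to 21), 178 in Flt3L KO cDC1 (6 to 545, and 25 to 606) and 291 in Flt3L KO cDC2 (247 to 487, and 72 to 484), the highest over the settings with the trended prior. Between the knockouts they were 132 (78 to 401, and 16 to 349) in cDC1 and 139 (102 to 268, and 8 to 224) in cDC2. For the difference of Flt3L KO effects they were 74 (37 to 208, and 20 to 484) and of Flt3 KO effects 0 (0 to 5, and 0 to 170). Each highest count with 1 array left out came without WT cDC1 replicate 2, shared in 4 comparisons that do not use WT cDC1 with replicate 1. The 2 arrays per group limit all of these, most of all for the dim member Itgad.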
